A study of Mus musculus with 22 samples.

Results

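The genes described here build the entry gate of the endoplasmic reticulum (ER) and the coats that carry cargo between the ER and the Golgi. They were chosen by name from the count table of mouse β-cells. They encode subunits of the signal recognition particle (SRP), the Sec61 channel, signal peptidase, oligosaccharyltransferase and the COPII and COPI coats. The Sec22 proteins, the KDEL receptors and the Tmed cargo receptors complete the choice. Of 52327 gene symbols in the table, 71 matched by name and 70 had at least 10 counts in at least 5 libraries. Srp54b, with 15 counts over all libraries, was left out. All 70 were among the 14064 genes tested. They fall into 9 machines. There are 9 genes of the SRP and its receptor, 11 of the Sec61 channel and the translocon-associated protein (TRAP) complex and 5 of signal peptidase. A further 7 are of oligosaccharyltransferase, 13 of COPII and 8 of COPI, with 3 Sec22 genes, 3 KDEL receptors and 11 Tmed genes.

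Preproinsulin is made on ribosomes that the SRP brings to the ER membrane. It passes through the Sec61 channel, loses its signal peptide to signal peptidase, folds in the ER and leaves in vesicles coated by COPII. COPI-coated vesicles bring escaped ER proteins and recycled cargo receptors back. β-cells carry a very large secretory load, so these machines are part of their basic equipment.

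The β-cells were sorted by flow cytometry from male mice, 3 months old and of mixed background, of 1 genotype (GluDTR+, SstDTR htz, PpyDTR htz). Such mice carry the diphtheria toxin receptor (DTR) in the glucagon, somatostatin and pancreatic polypeptide cells, so that diphtheria toxin (DT) removes the non-β endocrine cells and leaves islets of β-cells only. Refed DT mice (n = 6, fasted and then fed for 2 h) were set against DT mice fasted for 8 h (n = 6), and refed control mice (n = 5) against fasted control mice (n = 5). All cells were collected 1 month after the ablation. The labels give the controls the same genotype, and the design text calls their islets intact, but no source used here says whether they received an injection. Each library is 1 numbered mouse, and every mouse number occurs once. The expression of β-cells is measured in bulk, so fewer contributing cells of a type and less RNA per cell cannot be told apart.

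Libraries held 16584117 to 24988880 counts. β-cell markers were present in every library: insulin (Ins1 and Ins2 together) made up 40.3% to 69.4% of counts, and Pdx1, a β-cell transcription factor, had at least 105 CPM (counts scaled to a common library size, by edgeR's cpm on TMM-scaled totals). The 69.4% belongs to refed DT mouse 13; the other 5 refed DT libraries held 40.3% to 48.1%. The TMM factor of mouse 13 was 0.566. Results that rest on this library are given with and without it. Acinar markers, which come from the digestive part of the pancreas, varied between libraries: the 12 listed genes summed to 54.9 to 28275 CPM in refed DT mice (median 6980), 84.2 to 16318 in fasted DT mice (median 1994), 1063 to 18652 in refed control mice (median 10284) and 108 to 11480 in fasted control mice (median 3865). Markers of δ-cells, the somatostatin cells, had median sums of 18.3 CPM in refed DT mice, 16.5 in fasted DT mice, 67.3 in refed control mice and 44.3 in fasted control mice. For the α-cell list the median sums were 632 CPM in refed DT mice, 372 in fasted DT mice, 529 in refed control mice and 452 in fasted control mice. Ttr in it had at least 239 CPM in every library, and Gcg, the glucagon gene, had a median of 1.06 CPM over libraries and at most 241 CPM. For the list of pancreatic polypeptide cells (Ppy and Pyy) the sums were 36.8 CPM in refed DT mice, 9.78 in fasted DT mice, 97.1 in refed control mice and 19.9 in fasted control mice. Ptf1a, the acinar transcription factor, was at 0 in 9 of the 22 libraries. Of the 70 genes, 14 have a near-identical match in a gene that shares none of their exonic bases (at least 95% identity over at least 100 bases of transcript) and 20 share exonic bases with a neighbour. Gene positions are RefSeq's, in GRCm38.p6. The strand setting of the counting is not given in the sources used here, so those overlaps are uncertain.

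Per kilobase of exon, the highest mean levels over all libraries belonged to Ddost, an oligosaccharyltransferase subunit, at 235 CPM per kb and to Tram1, a partner of the channel, at 141 CPM per kb. Sec61b, a small channel subunit, followed at 132 CPM per kb and Rpn2 at 119.7 CPM per kb. The lowest were Sec31b at 0.225 and Sec24a at 1.49 CPM per kb. The 70 genes together took 1.20 ± 0.310% of counts in refed DT mice and 1.06 ± 0.0979% in fasted DT mice (SD, n = 6 each). In control mice their share was 1.38 ± 0.108% refed and 0.927 ± 0.103% fasted (SD, n = 5 each). Refed DT mouse 13 was the low one, at 0.587%, while the other 5 refed DT mice lay between 1.22% and 1.46%. Left out of the total, insulin no longer weighs on the share: it was then 2.34 ± 0.276% in refed DT mice, 2.04 ± 0.264% in fasted DT mice, 2.53 ± 0.0802% in refed control mice and 1.82 ± 0.172% in fasted control mice.

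**Figure D1:**
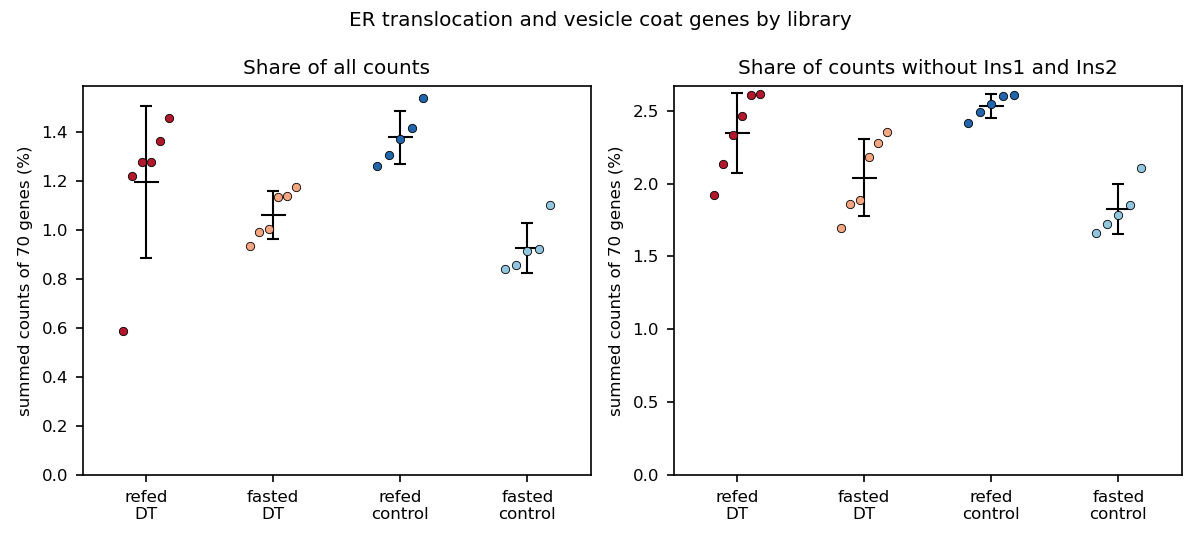
Share of each library's counts taken by the 70 genes, of all counts and of counts without Ins1 and Ins2, with 1 point per mouse and bars for the group mean and SD. All 5 refed control libraries lie above all 5 fasted control libraries, and refed DT mouse 13 is the lowest point of the left plot at 0.587%.

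Refeeding went with higher levels across most of these genes. Averaged over treatment, 48 of 70 (68.6%) were higher in refed mice and 1, Copg2, was lower, at an adjusted p under 0.05 over all 14064 genes (edgeR quasi-likelihood test, Benjamini-Hochberg). Over all genes tested, 17.2% were called higher and 21.7% lower. The median log2 fold change of the 70 genes was 0.43, against −0.06 over all genes tested. In DT mice 25 (35.7%) were called higher and 1 lower, where all genes gave 10.8% and 13.5%; in control mice 41 (58.6%) were higher and 0 lower, where all genes gave 10.9% and 12.3%. Beside the 0, the unadjusted p was under 0.05 for 1 gene in the lower direction, Copg2, which limma-voom called. The medians were 0.31 in DT mice and 0.58 in control mice, against −0.06 and −0.04 over all genes.

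The DT counts lean on mouse 13. Without it, the DT comparison had 43 higher calls and 1 lower call, 47 and 1 were found in control mice and 54 and 1 averaged, while the shares of all genes called higher came to 17.1%, 15.4% and 22.5%. Over the 22 fits that each left out 1 library, 43 genes stayed called in every averaged fit, 19 in every DT fit and 34 in every control fit. Beside those named further on, calls were lost by leaving out 1 library for Copa, Sar1b, Sec63, Srp54a and Tmed1 averaged over treatment (in 1, 10, 10, 15 and 13 fits, in that order), for Rpn1 and Srp14 in DT mice (6 and 5 fits), and for Copa, Sec13, Srp14, Srp19 and Tmed1 in control mice (5, 1, 4, 4 and 6 fits). Another fit had the mean log2 level of the acinar markers as a covariate. It gave 24 higher calls and 1 lower call in DT mice, 40 and 0 in control mice, and 44 and 1 averaged. The shares of all genes called in that fit are not given here. In raw separation, all refed control values lay above all fasted control values for 38 genes (54.3%, against 10.4% of all genes). All refed DT values lay above all fasted DT values for 5 genes (7.14%, against 4% of all genes): Dad1, Sec11a, Sec31a, Srp19 and Tmed5. Without mouse 13 that number was 14 (20%, against 7.86% of all genes). Copg2 alone had all refed values below all fasted values, in DT mice (6.11% of all genes), in DT mice without mouse 13 (9.03%) and in control mice (11.1%). Both refeeding comparisons use separate mice. Of the 25 genes called higher in DT mice, 24 (96%) were also called in control mice, and these 24 were 58.5% of the 41 control calls. Without mouse 13, 39 genes were called in both, which is 90.7% of 43 DT calls and 83.0% of 47 control calls. With all libraries the 1 gene called in DT mice only was Sec62. The overlap of calls over all genes tested is not given here, so these shared percentages have no background to be set against.

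**Figure D2:**
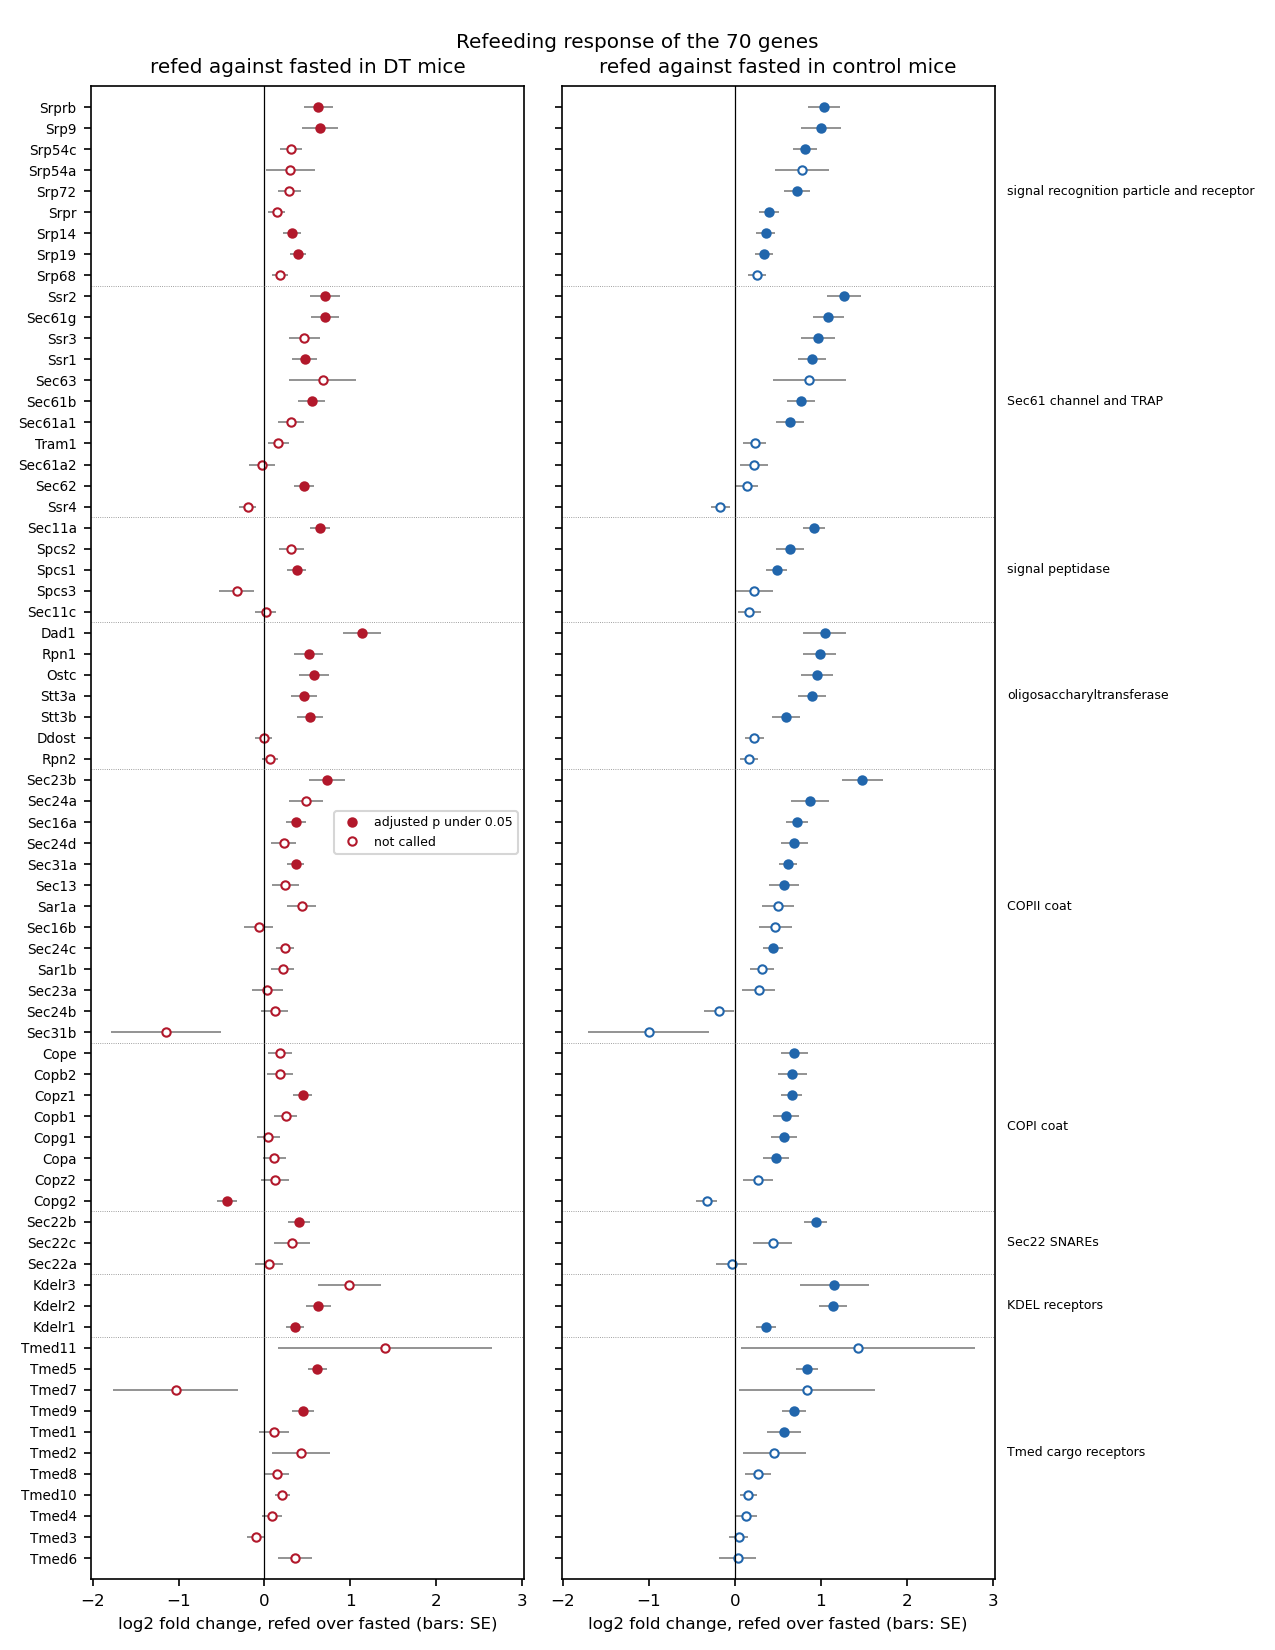
Log2 fold change of each of the 70 genes, refed over fasted, with its SE, in DT mice (left) and in control mice (right), grouped by machine; filled points have an adjusted p under 0.05. Most points lie right of 0 in both plots, the control points farther out, and Copg2 is the filled point left of 0 in DT mice.

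Transcription factors of the unfolded protein response, ATF6 and XBP1, bind a core that reads TGACGTG, and the promoters of the 70 genes were searched for it on both strands. RefSeq's table (GRCm38.p6, 250 bases before to 50 after each start) held 58 of the 70 genes. The core was in 7 of 58 (12.1%), against 2.22% of 27025 symbols: Copb1, Copb2, Kdelr3, Sec16b, Sec23a, Sec24d and Srpr. The cyclic AMP element TGACGTCA, which overlaps the core in its first letters, was in Cope alone (1.72%, against 2.03% of symbols). The longer ER stress element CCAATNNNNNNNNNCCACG and its second form ATTGGNCCACG were in 0 of 58, against 0.137% and 0.0444% of symbols. Of the 7 genes with TGACGTG, 5 were called higher on refeeding when averaged over treatment, against 48 (68.6%) of all 70 genes. Sec16b, at a log2 fold change of 0.20 ± 0.13 (SE, adjusted p = 0.219), and Sec23a, at 0.16 ± 0.13 (adjusted p = 0.367), were not called. The windows of the 5 called genes are shown from 150 bases before the start on. In each sequence the capitals mark the core as it reads on the gene's own strand, so CACGTCA is the core on the opposite strand.
Copb1: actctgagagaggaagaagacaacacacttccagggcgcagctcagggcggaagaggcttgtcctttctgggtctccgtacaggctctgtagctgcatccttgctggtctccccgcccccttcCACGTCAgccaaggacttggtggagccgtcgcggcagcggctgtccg
Copb2: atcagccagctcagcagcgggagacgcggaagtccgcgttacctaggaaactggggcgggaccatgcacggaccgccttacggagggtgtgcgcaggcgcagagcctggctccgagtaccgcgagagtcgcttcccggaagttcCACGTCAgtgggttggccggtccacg
Kdelr3: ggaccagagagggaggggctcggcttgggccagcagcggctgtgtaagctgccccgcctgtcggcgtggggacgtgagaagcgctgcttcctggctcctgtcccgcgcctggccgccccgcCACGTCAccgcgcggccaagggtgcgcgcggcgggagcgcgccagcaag
Sec24d: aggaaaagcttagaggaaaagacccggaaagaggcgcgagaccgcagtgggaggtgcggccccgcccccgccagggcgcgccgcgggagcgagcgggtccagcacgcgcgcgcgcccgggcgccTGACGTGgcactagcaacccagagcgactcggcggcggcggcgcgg
Srpr: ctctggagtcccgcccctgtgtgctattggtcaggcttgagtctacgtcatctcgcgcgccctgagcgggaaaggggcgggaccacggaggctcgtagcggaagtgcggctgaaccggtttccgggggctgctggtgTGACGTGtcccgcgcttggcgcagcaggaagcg

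In GRCm38.p6 these windows of 170 bases lie at chr7:114254661-114254830 (minus strand) for Copb1, chr9:98563581-98563750 (plus strand) for Copb2, chr15:79516258-79516427 (plus strand) for Kdelr3, chr3:123267346-123267515 (plus strand) for Sec24d and chr9:35211053-35211222 (plus strand) for Srpr. The core begins 27, 6, 29, 26 and 13 bases before the start, in that order. For Sec24d the start used lies inside the gene, which spans chr3:123264801-123365641, and not at its first base. Averaged over treatment, the log2 fold change on refeeding was 0.42 ± 0.10 for Copb1, 0.43 ± 0.11 for Copb2, 1.07 ± 0.27 for Kdelr3, 0.46 ± 0.11 for Sec24d and 0.27 ± 0.08 for Srpr (± SE). All 5 were called in control mice and none in DT mice with mouse 13 included. Without that mouse, Copb1 (0.44, adjusted p = 0.000843), Copb2 (0.38, adjusted p = 0.0197), Kdelr3 (1.25, adjusted p = 0.00679) and Sec24d (0.40, adjusted p = 0.0134) were called in DT mice, and Srpr was not (0.25, adjusted p = 0.078). A match of letters is a description and no evidence of binding.

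The SRP catches signal peptides as they leave the ribosome, and its receptor docks the complex on the ER. All 9 genes were higher on refeeding averaged over treatment, 4 of 9 in DT mice (6 without mouse 13) and 7 of 9 in control mice, with median log2 fold changes of 0.31 in DT and 0.72 in control mice. Srprb (chr9:103188033-103202065), the membrane subunit of the receptor, had 66.5 to 138 CPM in refed DT mice (median 113) and 49.8 to 90.7 CPM in fasted DT mice (median 67.3). In control mice Srprb had 107, 135, 129.99, 109 and 113 CPM when refed and 52.2, 81.7, 44.1, 58.95 and 52.8 CPM when fasted. Refed DT mouse 13 was the 1 refed DT library inside the fasted range, and the control groups did not overlap. For Srprb the log2 fold change was 0.63 ± 0.17 (adjusted p = 0.00919) in DT mice and 1.04 ± 0.19 (adjusted p = 0.000378) in control mice. A same-strand transcript, Gm20425, shares exonic bases with Srprb.

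Srp9, which with Srp14 forms the part of the particle that pauses translation, had 40.6 to 75.2 CPM in refed DT mice (median 54.2) and 22.04 to 47.2 CPM in fasted DT mice (median 34.5). In control mice Srp9 had 54.5, 79.1, 51.1, 59.2 and 79.9 CPM when refed and 25.2, 40.6, 19.96, 41.8 and 34.3 CPM when fasted. Refed mouse 20 was the only refed DT value inside the fasted DT range, and the control groups were apart. Refeeding gave Srp9 a log2 fold change of 0.65 ± 0.21 (adjusted p = 0.028) in DT and 1.00 ± 0.23 (adjusted p = 0.00338) in control mice. Srp9 was not called in DT mice without refed DT mouse 17 or fasted DT mouse 9, 10 or 11 (0.54 to 0.59, adjusted p 0.0652 to 0.0762). Srp9 has a near copy, Gm13736. Srp54c, a copy of the subunit that binds the signal peptide, averaged 23.6 ± 3.98 CPM in refed and 19.1 ± 3.46 CPM in fasted DT mice, and 28.3 ± 1.36 CPM in refed and 16.1 ± 2.3 CPM in fasted control mice (SD). Its change passed the test in control mice, at 0.81 ± 0.14 (adjusted p = 0.00029), and did not in DT mice, at 0.31 ± 0.13 (adjusted p = 0.0839), unless mouse 13 or fasted DT mouse 7 was left out (0.45 and 0.41). The transcripts of Srp54a and Srp54c are 99.5% identical over their longest match, so the counting could move reads between them. Srp19 was among the 5 genes whose DT groups did not overlap, with 40.7 to 58.8 CPM in refed DT mice (median 49.8) and 32.6 to 40.6 CPM in fasted DT mice (median 39.3). Averaged over treatment, the log2 fold changes of the other called members were 0.54 ± 0.21 for Srp54a, 0.51 ± 0.10 for Srp72, 0.36 ± 0.07 for Srp19, 0.34 ± 0.08 for Srp14, 0.27 ± 0.08 for Srpr and 0.22 ± 0.07 for Srp68.

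The Sec61 channel lets the growing chain through the membrane, and the TRAP complex (Ssr1 to Ssr4) sits beside it and helps chains such as preproinsulin to enter. Averaged over treatment 8 of 11 genes were higher, with 5 in DT mice (8 without mouse 13) and 6 in control mice, and medians of 0.46 and 0.77. Ssr2 (chr3:88579608-88588420), the TRAP β subunit, had 163 to 255 CPM in refed DT mice (median 187) and 86.5 to 186 CPM in fasted DT mice (median 109). In control mice Ssr2 had 191, 217, 256, 221 and 217 CPM when refed and 69.3, 135, 76.1, 89.8 and 85.9 CPM when fasted. Every refed control value was above every fasted one, while 3 of 6 refed DT values were above the highest fasted DT value. For Ssr2 the log2 fold change was 0.70 ± 0.18 (adjusted p = 0.00592) in DT and 1.27 ± 0.20 (adjusted p = 8.43e-05) in control mice. A stretch of 366 bases of Ssr2 is 98.6% identical to Rtraf, another gene with counts.

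Sec61g (chr11:16501638-16508484), the channel's γ subunit, had 9.6 to 14.3 CPM in refed DT mice (median 12.8) and 4.65 to 10.9 CPM in fasted DT mice (median 7.71). In control mice Sec61g had 11.8, 12.5, 14.3, 11.9 and 13.5 CPM when refed and 5.35, 7.86, 5.81, 6.11 and 5.04 CPM when fasted. Mouse 13 was again the lowest refed DT value, and the control groups were apart. Refeeding gave Sec61g a log2 fold change of 0.70 ± 0.16 (adjusted p = 0.00333) in DT and 1.09 ± 0.18 (adjusted p = 0.000189) in control mice. Sec61g has a near copy, Gm10177. Ssr1, the TRAP α subunit, averaged 208 ± 40.2 CPM in refed and 150.04 ± 29.3 CPM in fasted DT mice, and 242 ± 23.3 CPM in refed and 129.7 ± 26.4 CPM in fasted control mice (SD). For Ssr1 the log2 fold change was 0.47 ± 0.15 (adjusted p = 0.0228) in DT and 0.90 ± 0.16 (adjusted p = 0.000398) in control mice; leaving out refed DT mouse 16 or 20 or fasted DT mouse 9, 10 or 11 ended the DT call (0.41 to 0.44, adjusted p 0.0504 to 0.0603).

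Members of one complex did not all pass the test. Ssr4, the TRAP δ subunit, had a log2 fold change of −0.18 ± 0.07 (adjusted p = 0.0546) averaged over treatment, while Ssr1, Ssr2 and Ssr3 were called higher. Sec61a2, the second α subunit, was at 0.10 ± 0.11 (adjusted p = 0.514), and its exons overlap Nudt5. Sec62, which works with Sec63 in entry after translation, was at 0.46 ± 0.11 (adjusted p = 0.00545) in DT mice and 0.14 ± 0.12 (adjusted p = 0.461) in control mice. The difference between these responses was 0.32 ± 0.17 (adjusted p = 0.732). Among the called members not yet given, the averaged log2 fold changes were 0.77 ± 0.29 for Sec63, 0.72 ± 0.13 for Ssr3, 0.66 ± 0.11 for Sec61b and 0.48 ± 0.11 for Sec61a1. Sec63 values were split within the fasted groups. Fasted control mice 4 and 5 had 39.7 and 21.6 CPM, and fasted DT mice 6, 7 and 8 had 38.4, 30.5 and 19.4 CPM. The other fasted mice had 83.9 to 108 CPM, and refed DT mouse 16 had 43.8 CPM.

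Signal peptidase cuts the signal peptide off inside the ER. Averaged over treatment 3 of 5 subunits were higher, with 2 in DT mice (3 without mouse 13) and 3 in control mice. Sec11a (chr7:80915379-80947550), a catalytic subunit, had 86.2 to 122 CPM in refed DT mice (median 102) and 52.2 to 78.3 CPM in fasted DT mice (median 63.97). In control mice Sec11a had 92.1, 105, 100.4, 96.2 and 103 CPM when refed and 44.5, 61.5, 41.9, 58.7 and 55.6 CPM when fasted. No refed value overlapped the fasted ones under either treatment. Refeeding gave Sec11a a log2 fold change of 0.65 ± 0.11 (adjusted p = 0.000296) in DT and 0.92 ± 0.12 (adjusted p = 2.35e-05) in control mice, and the averaged change of 0.78 ± 0.08 had the smallest adjusted p of the 70 genes (3.18e-07). Exons of Sec11a overlap those of Nmb on the same strand. Sec11c, the other catalytic subunit, was not called, at 0.09 ± 0.09 (adjusted p = 0.449).

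Spcs1, an accessory subunit, averaged 199.9 ± 29.2 CPM in refed and 154 ± 28.3 CPM in fasted DT mice, and 200.2 ± 19.3 CPM in refed and 143 ± 8.2 CPM in fasted control mice (SD). For Spcs1 the log2 fold change was 0.37 ± 0.11 (adjusted p = 0.0182) in DT and 0.49 ± 0.12 (adjusted p = 0.00605) in control mice, and its exons overlap Glt8d1. Spcs2, a second accessory subunit, was called in control mice at 0.65 ± 0.16 (adjusted p = 0.00583) and not in DT mice at 0.31 ± 0.15 (adjusted p = 0.129), where it passed without mouse 13 or fasted DT mouse 6 (0.47 and 0.42). Spcs3 was at −0.05 ± 0.15 (adjusted p = 0.819) averaged over treatment.

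Oligosaccharyltransferase adds sugar chains to proteins as they enter the ER. The same count of 5 of 7 genes was higher in DT mice, in control mice and averaged over treatment, with medians of 0.51 in DT and 0.90 in control mice. Dad1 (chr14:54235485-54253929), a small subunit needed for the enzyme's stability, had 231 to 730.5 CPM in refed DT mice (median 275) and 132 to 201 CPM in fasted DT mice (median 148). In control mice Dad1 had 254, 296, 326, 271 and 448 CPM when refed and 167, 169, 133, 154 and 149.8 CPM when fasted. Refed and fasted values did not overlap under either treatment, and the highest value, 730.5 CPM, came from refed DT mouse 13. Refeeding gave Dad1 a log2 fold change of 1.14 ± 0.23 (adjusted p = 0.000966) in DT and 1.04 ± 0.25 (adjusted p = 0.00393) in control mice, and 0.85 in DT mice without mouse 13.

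Stt3a, the catalytic subunit of the form that works at the channel, had 276 to 509 CPM in refed DT mice (median 414) and 201 to 363 CPM in fasted DT mice (median 297). In control mice Stt3a had 378, 453, 431, 478 and 423 CPM when refed and 203, 318, 197, 233 and 212 CPM when fasted. Mouse 13 lay inside the fasted DT range and the other 5 refed DT mice above it. For Stt3a the log2 fold change was 0.46 ± 0.15 (adjusted p = 0.026) in DT and 0.90 ± 0.16 (adjusted p = 0.00042) in control mice; leaving out refed DT mouse 16 or 17 or fasted DT mouse 9, 10 or 11 ended the DT call (0.37 to 0.44, adjusted p 0.0503 to 0.0771). Ostc, a subunit of the same form, was at 0.58 ± 0.17 (adjusted p = 0.0169) in DT and 0.95 ± 0.19 (adjusted p = 0.000854) in control mice. Ddost and Rpn2, which had the highest levels per kilobase of the enzyme, were not called, at 0.11 ± 0.08 (adjusted p = 0.267) and 0.11 ± 0.07 (adjusted p = 0.224) averaged over treatment. The remaining called subunits averaged 0.75 ± 0.13 for Rpn1 and 0.56 ± 0.11 for Stt3b.

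**Figure D3:**
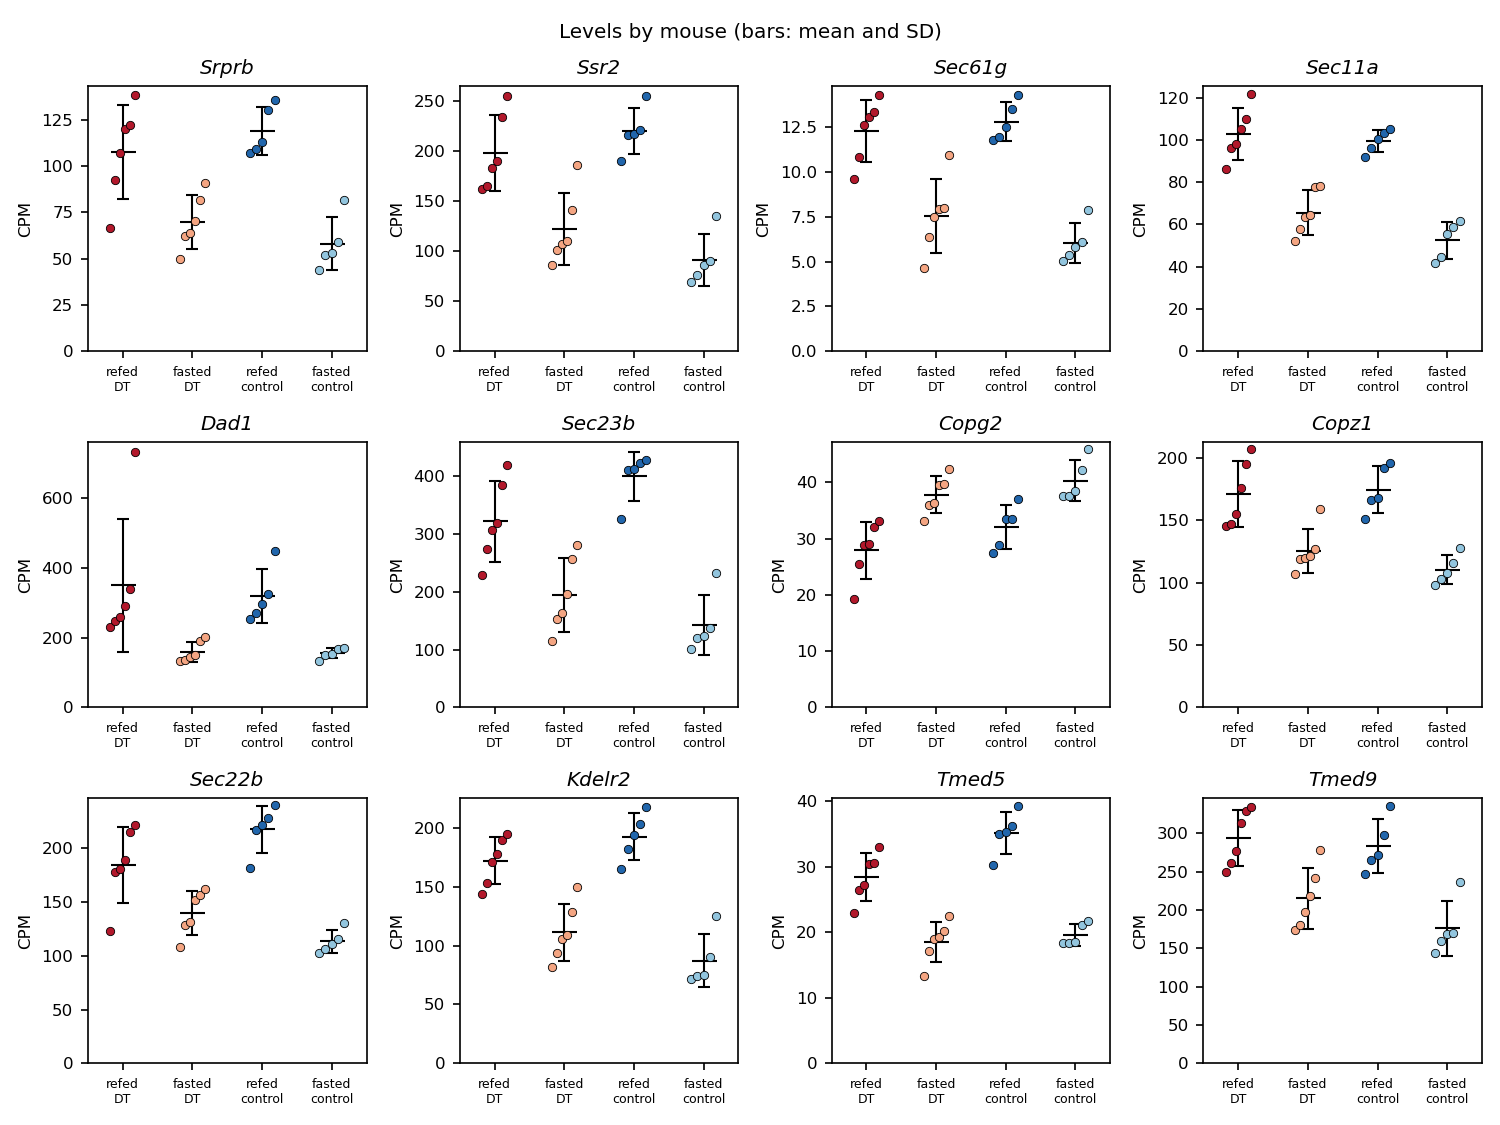
TMM-scaled CPM of 12 of the 70 genes, 1 point per mouse, in refed DT, fasted DT, refed control and fasted control mice, with bars for the group mean and SD. For Sec11a and Dad1 the refed points lie above the fasted points under both treatments, and for Copg2 they lie below.

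COPII forms the vesicles that leave the ER: the GTPase Sar1 starts the coat, Sec23 and Sec24 form its inner layer, Sec13 and Sec31 its outer cage, and Sec16 marks the exit sites. Averaged over treatment 9 of 13 genes were higher, with 3 in DT mice (8 without mouse 13) and 7 in control mice. Sec23b (chr2:144556229-144590753) had 229 to 419.8 CPM in refed DT mice (median 313) and 114 to 281 CPM in fasted DT mice (median 180.2). In control mice Sec23b had 326, 412, 429, 422 and 410.3 CPM when refed and 123, 233, 100.3, 137 and 121 CPM when fasted. The control groups did not overlap, while mouse 13 was among the 2 refed DT mice inside the fasted DT range. Refeeding gave Sec23b a log2 fold change of 0.73 ± 0.21 (adjusted p = 0.0143) in DT and 1.49 ± 0.23 (adjusted p = 0.000111) in control mice, and the averaged 1.11 ± 0.16 was the largest among called members.

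Sec31a, of the outer cage, had 401 to 536 CPM in refed DT mice (median 436) and 316 to 400.02 CPM in fasted DT mice (median 347). In control mice Sec31a had 406, 442, 476, 519 and 505 CPM when refed and 273, 359.7, 289, 312 and 295 CPM when fasted. Refed values stood above all fasted values under both treatments, in DT mice narrowly. For Sec31a the log2 fold change was 0.36 ± 0.10 (adjusted p = 0.00834) in DT and 0.62 ± 0.11 (adjusted p = 0.000231) in control mice. Sec16a was at 0.37 ± 0.11 (adjusted p = 0.0213) in DT mice, a call lost without refed DT mouse 16 or fasted DT mouse 9, 10 or 11 (0.30 to 0.34, adjusted p 0.0504 to 0.0717), and at 0.73 ± 0.13 (adjusted p = 0.000274) in control mice. Of the Sec24 cargo adaptors, Sec24a, Sec24c and Sec24d were called in control mice and Sec24b was at −0.03 ± 0.12 (adjusted p = 0.851) averaged over treatment. Sec31b, with the lowest level per kilobase, was at −1.08 ± 0.47 (adjusted p = 0.0771). Averaged log2 fold changes of the other called COPII genes were 0.68 ± 0.15 for Sec24a, 0.47 ± 0.12 for Sar1a, 0.46 ± 0.11 for Sec24d, 0.41 ± 0.12 for Sec13, 0.34 ± 0.08 for Sec24c and 0.26 ± 0.10 for Sar1b.

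COPI coats the vesicles that return from the Golgi; its coatomer has α, β, γ, δ, ε and ζ subunits among others. Averaged over treatment 6 of 8 genes were higher and 1 lower, with 1 higher and 1 lower in DT mice (4 and 1 without mouse 13) and 6 higher in control mice. Copz1, a ζ subunit, was with all libraries the gene called higher in both: it had 146 to 208 CPM in refed DT mice (median 166) and 107 to 159 CPM in fasted DT mice (median 121). In control mice Copz1 had 151, 167, 192, 168 and 196 CPM when refed and 116, 128, 98.02, 103 and 107 CPM when fasted. The control groups did not overlap, and 3 of 6 refed DT mice were above the fasted DT range. Refeeding gave Copz1 a log2 fold change of 0.45 ± 0.11 (adjusted p = 0.00482) in DT and 0.66 ± 0.12 (adjusted p = 0.000408) in control mice. Cope, the ε subunit, was at 0.18 ± 0.14 (adjusted p = 0.377) in DT and 0.69 ± 0.16 (adjusted p = 0.0027) in control mice. The other COPI genes called higher had averaged log2 fold changes of 0.43 ± 0.11 for Copb2, 0.42 ± 0.10 for Copb1, 0.31 ± 0.10 for Copg1 and 0.30 ± 0.10 for Copa.

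Copg2 (chr6:30747554-30896815), a γ subunit, was the 1 gene called lower. It had 19.2 to 33.1 CPM in refed DT mice (median 28.9) and 33.2 to 42.4 CPM in fasted DT mice (median 37.96). In control mice Copg2 had 33.4, 28.9, 27.5, 37.00 and 33.5 CPM when refed and 37.5, 42.1, 37.5, 45.8 and 38.5 CPM when fasted. All refed values lay below all fasted values under both treatments. For Copg2 the log2 fold change was −0.43 ± 0.11 (adjusted p = 0.00816) in DT and −0.33 ± 0.13 (adjusted p = 0.0616) in control mice, and −0.38 ± 0.08 (adjusted p = 0.00114) averaged over treatment. In DT mice the call was lost with no filter on low counts (−0.38, adjusted p = 0.0573) and without refed DT mice 13 and 20 (−0.26, adjusted p = 0.0691). Copg2 shares exonic bases with Mest.

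Sec22b, the SNARE that fuses vesicles between the ER and the Golgi, was the 1 of 3 Sec22 genes called, in both treatments; without mouse 13, 2 were called in DT mice. It had 123 to 221 CPM in refed DT mice (median 185) and 109 to 163 CPM in fasted DT mice (median 142). In control mice Sec22b had 182, 222, 217, 239.95 and 228 CPM when refed and 107, 131, 103, 116 and 111 CPM when fasted. Mouse 13 fell inside the fasted DT range and the other 5 refed DT mice above it, and the control groups were apart. Refeeding gave Sec22b a log2 fold change of 0.40 ± 0.12 (adjusted p = 0.0205) in DT and 0.94 ± 0.14 (adjusted p = 4.58e-05) in control mice. The DT call was lost without fasted DT mouse 11 or refed DT mouse 16 (adjusted p 0.0555 and 0.0612). Sec22c was at 0.38 ± 0.16 (adjusted p = 0.0583) and Sec22a at 0.01 ± 0.12 (adjusted p = 0.964) averaged over treatment.

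KDEL receptors catch escaped ER chaperones in the Golgi and send them back. All 3 were higher averaged over treatment and in control mice, and 2 of 3 in DT mice (3 without mouse 13). Kdelr2 (chr5:143403820-143421904) had 144 to 195 CPM in refed DT mice (median 175) and 82.1 to 149 CPM in fasted DT mice (median 107). In control mice Kdelr2 had 165, 182, 218, 194 and 203 CPM when refed and 71.3, 125, 74.9, 90.5 and 74.3 CPM when fasted. The control groups were apart, and 1 refed and 1 fasted DT value crossed. For Kdelr2 the log2 fold change was 0.63 ± 0.14 (adjusted p = 0.0031) in DT and 1.14 ± 0.16 (adjusted p = 3.58e-05) in control mice. Kdelr1 was at 0.35 ± 0.10 (adjusted p = 0.0142) in DT and 0.36 ± 0.11 (adjusted p = 0.0212) in control mice. Its control call was lost without fasted control mouse 3 (adjusted p = 0.0612) or refed control mouse 22 (adjusted p = 0.0525).

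Kdelr3 had the lowest levels of the receptors, 2.56 to 15.9 CPM in refed DT mice (median 9.17) and 2.61 to 10.6 CPM in fasted DT mice (median 3.59). In control mice Kdelr3 had 7.73, 10.4, 10.7, 6.13 and 7.19 CPM when refed and 6.17, 4.54, 2.62, 3.74 and 1.83 CPM when fasted. In DT mice the groups overlapped through mouse 13, the lowest refed value, and fasted mouse 6, the highest fasted one. Refeeding gave Kdelr3 a log2 fold change of 0.99 ± 0.37 (adjusted p = 0.054) in DT and 1.16 ± 0.41 (adjusted p = 0.0423) in control mice, and the control call was lost without refed control mouse 12, 18, 19 or 22 or fasted control mouse 2, 3, 4 or 5 (0.98 to 1.23, adjusted p 0.0533 to 0.108).

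Tmed proteins span the membrane, load cargo into COPII and COPI vesicles and cycle between the compartments. Averaged over treatment 4 of 11 genes were higher, with 2 in DT mice (4 without mouse 13) and 3 in control mice. Tmed5 (chr5:108121556-108132620) had 22.9 to 32.9 CPM in refed DT mice (median 28.8) and 13.3 to 22.4 CPM in fasted DT mice (median 19.1). In control mice Tmed5 had 30.2, 35.3, 39.2, 36.2 and 34.9 CPM when refed and 21.7, 18.5, 18.4, 21.1 and 18.3 CPM when fasted. No refed value overlapped the fasted ones under either treatment. For Tmed5 the log2 fold change was 0.62 ± 0.11 (adjusted p = 0.00052) in DT and 0.84 ± 0.13 (adjusted p = 6.58e-05) in control mice. Tmed5 shares exonic bases with Mtf2 and has short near matches in other genes. Tmed9 was at 0.45 ± 0.13 (adjusted p = 0.0142) in DT and 0.69 ± 0.14 (adjusted p = 0.00133) in control mice. Tmed10, at an averaged 0.18 ± 0.07 (adjusted p = 0.0307), lost its call without refed DT mouse 16, fasted DT mouse 10, refed control mouse 19 or 22 or fasted control mouse 3 or 5 (0.16 to 0.18, adjusted p 0.0503 to 0.0718).

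Tmed7 did not follow the groups. It had 20.3 to 104 CPM in refed DT mice (median 23.3) and 14.6 to 137 CPM in fasted DT mice (median 73.6), and in control mice 45.1, 149, 156, 23.99 and 27.7 CPM when refed and 56.2, 118, 27.2, 11.5 and 11.96 CPM when fasted. Libraries lay at 56.2 CPM or below or at 104 CPM or above, with none between, and each of the 4 groups held both kinds. In fasted DT mice, Tmed7 was low in mice 6, 7 and 8 (14.6 to 18.1 CPM), which were also the mice low for Sec63. In refed DT mice the genes did not match: mouse 17 alone had high Tmed7 and mouse 16 alone had low Sec63. No cause was tested. Exons of Tmed7 overlap those of Ticam2 on the same strand. The log2 fold change was −0.10 ± 0.54 (adjusted p = 0.905) averaged over treatment.

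Several of these genes come in pairs of related genes, and the ratio within some pairs differed between refed and fasted mice. The ratio tests were added after the data were seen, and their p-values do not account for that choice. The log2 ratio of 9 pairs was compared by exact permutation tests, two-sided, with 1 CPM added to each gene; the 18 tests were adjusted together, and the smallest p they allow is 0.00216 in DT and 0.00794 in control mice. Sec11a over Sec11c was higher in refed mice by 0.64 in DT mice (exact p = 0.0108, adjusted 0.0325) and by 0.76 in control mice (exact p = 0.00794, adjusted 0.0325). Sec23b over Sec23a was higher by 0.79 in DT mice (exact p = 0.0152, adjusted 0.0357) and by 1.29 in control mice (exact p = 0.00794, adjusted 0.0325). Copg1 over Copg2 was higher by 0.46 in DT mice (exact p = 0.00216, adjusted 0.0325) and by 0.90 in control mice (exact p = 0.00794, adjusted 0.0325). These 3 pairs passed in both treatments, and each had an unadjusted exact p under 0.05 with any 1 library left out.

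The ratio Copz1/Copz2 was higher by 0.35 in DT mice and by 0.39 in control mice (exact p = 0.0238 and adjusted 0.0357 in each). In DT mice it no longer passed without fasted DT mouse 10 (0.30). In control mice it did not pass when 1 mouse was left out from among the fasted controls 1, 3 and 4 or the refed controls 18, 19, 21 and 22 (0.31 to 0.39). Sec31a over Sec31b passed in both, by 0.88 in DT mice (adjusted 0.0325) and 1.05 in control mice (adjusted 0.0357) in exact tests, with Sec31b near 0. The ratio Sar1a/Sar1b differed by 0.17 in DT mice (adjusted exact p = 0.144; 0.26 and an unadjusted p under 0.05 without refed DT mouse 13) and by 0.18 in control mice (adjusted 0.0357). The ratio Sec16a/Sec16b differed by 0.51 in DT mice (adjusted exact p = 0.101; 0.65 and an unadjusted p under 0.05 without refed DT mouse 20) and by 0.26 in control mice (adjusted 0.0357), where leaving out any 1 fasted mouse ended the call (0.25 to 0.28). Whether the treatments differ was not tested for the ratios. Sec61a1 over Sec61a2 (0.31 in DT and 0.44 in control mice) and Stt3a over Stt3b (−0.06 in DT and 0.32 in control mice) passed in neither.

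**Figure D4:**
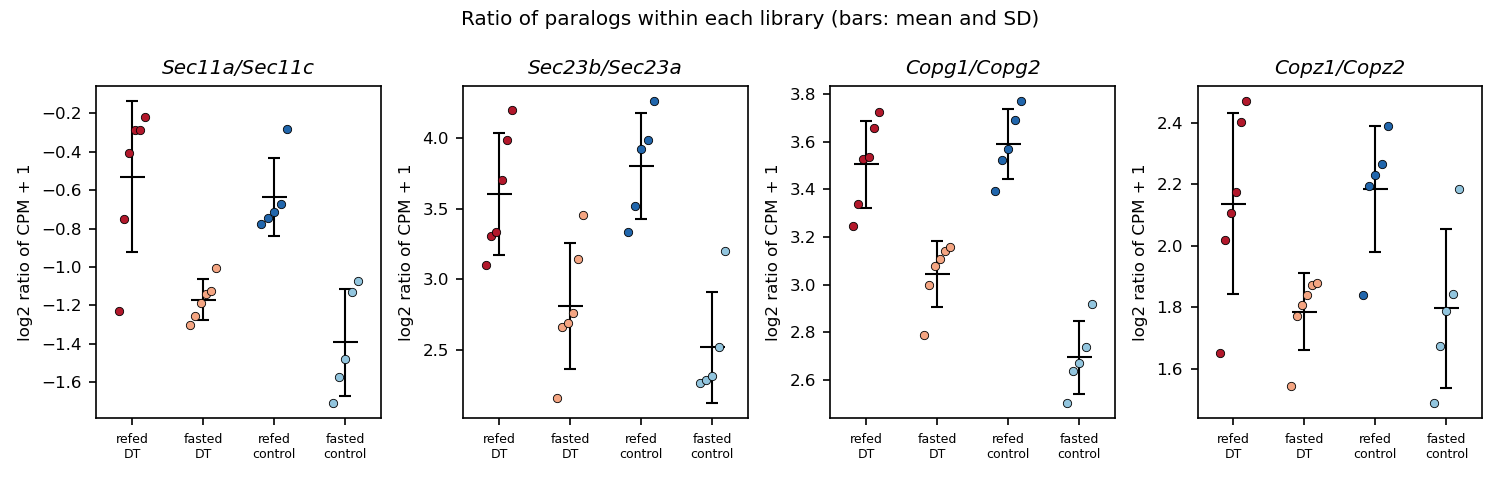
Log2 ratio of 4 gene pairs in each mouse, by group, with bars for the group mean and SD. The refed means are higher than the fasted means in both treatments for each pair, most widely for Sec23b over Sec23a in control mice (a mean difference of 1.29).

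Loss of the neighbouring endocrine cells was the study's other question. Of the 70 genes 0 were called between DT and control mice when refed, 0 when fasted and 0 averaged over feeding (edgeR), where 0.0356%, 0.0284% and 0.206% of all genes were called. DESeq2 and limma-voom also called 0 in these comparisons and in the difference between the responses. At an unadjusted p under 0.05, 5 genes (7.14%) were lower in refed DT mice and 10 (14.3%) were higher in fasted DT mice. Averaged over feeding, 3 were higher and 1 lower. For all genes those shares were 10%, 8.33% and 11.9% in either direction. By direction, 618 of 14064 genes were lower in refed DT mice and 722 higher in fasted DT mice. The count of 5 in refed mice came to 1 without refed DT mouse 13, 2 without refed control mouse 19 or 21, 3 without fasted control mouse 4 and at most 7 with any 1 library left out. The count of 10 in fasted mice came to 24 without fasted control mouse 2 and 22 without fasted DT mouse 11, but 2 without fasted DT mouse 7, 4 without fasted control mouse 1 or 3 or fasted DT mouse 6, 5 without fasted control mouse 5 and 6 without fasted DT mouse 8. Averaged over feeding it was 2 to 6, with 2 without fasted control mouse 1 or refed control mouse 12. The shares of all genes in these fits without 1 library are not given here. The median log2 fold change of the 70 genes, DT over control, was −0.09 refed, 0.16 fasted and 0.03 averaged, against −0.00367, 0.01 and 0.01 over all genes tested. For 0 genes were all DT values apart from all control values in refed mice (0.427% of all genes above and 0.562% below) or in fasted mice (1.1% and 0.775%).

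In refed mice the smallest p values were those of Tmed5 at −0.31 ± 0.12 (adjusted p = 0.374), Srpr at −0.28 ± 0.11 (adjusted p = 0.384) and Sec16b, an exit-site scaffold, at −0.41 ± 0.18 (adjusted p = 0.441). In fasted mice they were those of Sec61a2 at 0.44 ± 0.16 (adjusted p = 0.462), Cope at 0.41 ± 0.15 (adjusted p = 0.466) and Sec11a at 0.32 ± 0.12 (adjusted p = 0.478). Averaged over feeding they were Sec61a2 at 0.31 ± 0.11 (adjusted p = 0.245), Srp19 at 0.18 ± 0.07 (adjusted p = 0.324) and Tmed5 at −0.19 ± 0.08 (adjusted p = 0.37). Sec61a2 had 6.58 to 10.7 CPM in fasted DT mice (median 7.81) and 4.29, 5.94, 6.43, 7.86 and 6.46 CPM in fasted control mice. Without refed DT mice 13 and 20, Sec16b passed in refed mice (−0.66, adjusted p = 0.0469). Mouse 20, left out there, had the highest Sec16b of the refed DT mice, 61.5 CPM. That value was above the highest refed control value, 59.8 CPM. How many of all genes passed in that fit is not given here.

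The response to refeeding, DT minus control, was below 0 for 63 of the 70 genes, with a median of −0.24. Over all genes tested the median was −0.02 and 48.0% lay above 0. None of the 70 genes was called, against 0.00711% of all genes. At an unadjusted p under 0.05 there were 12 (17.1%), all lower. Of all 14064 genes 541 were lower and 463 higher, 7.14% in either direction. The count of 12 moved with single libraries: it was 23 without fasted control mouse 2 and 19 without fasted DT mouse 11. It was 4 without fasted DT mouse 6 or 7 and 5 without fasted control mouse 1 or 3. It was 6 without fasted control mouse 4 or 5, fasted DT mouse 8, refed control mouse 21 or 22 or refed DT mouse 13. Without refed control mouse 19 it was 7. The shares of all genes in these fits without 1 library are not given here. The number above 0 was 7 with all libraries, 11 without fasted control mouse 4, 12 without refed control mouse 22, 13 without fasted control mouse 5 and 16 without fasted DT mouse 6. Sec22b was at −0.54 ± 0.18 (adjusted p = 0.586), Srp54c at −0.50 ± 0.19 (adjusted p = 0.593) and Copg1 at −0.52 ± 0.20 (adjusted p = 0.608). Copg1, the other γ subunit of COPI, had 191 to 393 CPM in refed DT mice (median 341) and 257 to 365 CPM in fasted DT mice (median 325). In control mice Copg1 had 361, 386, 388, 450.4 and 396 CPM when refed and 239, 325, 256, 264 and 250.5 CPM when fasted. Mouse 13 held the lowest Copg1 value of the refed DT mice, below every fasted DT value. Without mouse 13, 17 of the 70 genes were above 0 and 6 passed unadjusted. Sec22b then stood at −0.41 (adjusted p = 0.358), Srp54c at −0.39 (adjusted p = 0.452) and Copg1 at −0.37 (adjusted p = 0.405).

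**Figure D5:**
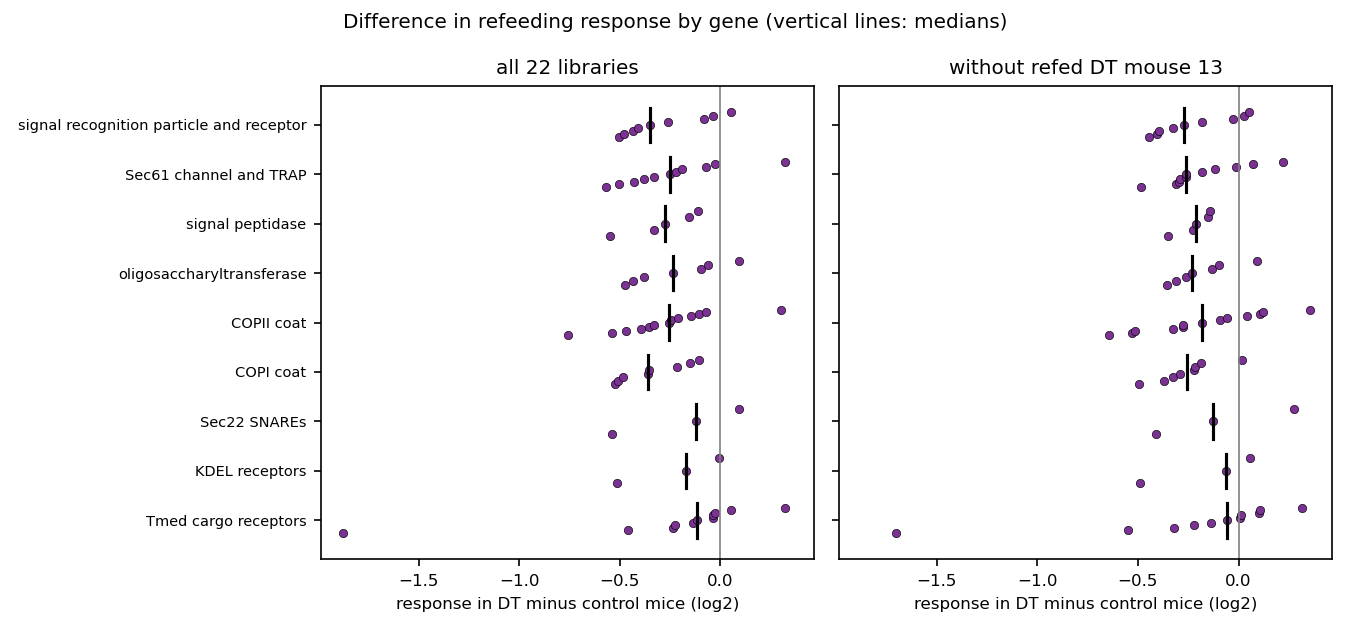
Difference in the log2 response to refeeding, DT minus control, for each of the 70 genes by machine, with all 22 libraries (left) and without refed DT mouse 13 (right); vertical lines mark medians. Most points lie below 0 on the left (63 of 70); on the right 17 lie above 0.

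Genes that work around these machines were also tested for refeeding, and their log2 fold changes are averages over treatment ± SE. Of all genes tested, 17.2% were called higher and 21.7% lower averaged over treatment. Those shares were 10.8% and 13.5% in DT mice and 10.9% and 12.3% in control mice. Of 39 other genes of transport between the ER and the Golgi, 23 were higher and 1 lower averaged over treatment (median 0.30), with 12 higher and 1 lower in DT mice (22 and 0 without mouse 13) and 21 higher in control mice. Arf4, a GTPase of the early Golgi, was at 0.98 ± 0.10, Cnih1, a cargo receptor, at 0.60 ± 0.07 and Tfg, of the exit sites, at 0.69 ± 0.08, while Rab1b was lower at −0.21 ± 0.06. Of 22 ER chaperones and folding enzymes 15 were higher and 0 lower (median 0.54), with 10 higher and 1 lower in DT mice (13 and 0 without mouse 13) and 14 higher in control mice. Creld2 was at 1.52 ± 0.15, Dnajb9 at 1.00 ± 0.12 and Pdia6 at 0.88 ± 0.10.

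Of 24 other ER entry genes 10 were higher and 3 lower (median 0.17), with 4 higher in DT mice (9 higher and 1 lower without mouse 13), and 5 higher and 3 lower in control mice. All genes tested gave 17.2% higher and 21.7% lower averaged, 10.8% higher in DT mice, and 10.9% higher and 12.3% lower in control mice. Krtcap2, an oligosaccharyltransferase subunit, was at 0.80 ± 0.16 and Ccdc47, a partner of the channel, at 0.54 ± 0.08; Tram2 at −1.46 ± 0.44, Sil1 at −0.29 ± 0.06 and Emc10 at −0.25 ± 0.05 were the lower ones. Of 10 regulators of ER capacity tested, 4 were higher and 1 lower (median 0.29), with 4 and 1 in DT mice and 4 higher in control mice (4 and 1 without mouse 13). The transcription factors Bhlha15 (0.99 ± 0.12), Atf6b (0.91 ± 0.14) and Creb3l2 (0.61 ± 0.07) were higher and the protease gene Mbtps1 was lower (−0.36 ± 0.09). Xbp1 was at −0.00326 ± 0.0767 (adjusted p = 0.979). In these lists 0 genes were called between DT and control mice or in the difference between the responses (edgeR), where at most 0.206% of all genes were. At an unadjusted p under 0.05 each list held 0 to 3 genes in refed mice, 1 to 6 in fasted mice, 1 to 5 averaged over feeding and 1 to 7 in the difference. The shares of all genes tested were 10%, 8.33%, 11.9% and 7.14%, in that order.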

How the data were processed

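Amplified cDNA libraries of total RNA from sorted β-cells (SMARTer Ultra Low and Nextera XT kits) were sequenced as single-end reads, per the labels' protocols. The deposited values are raw read counts per gene symbol; the authors used STAR 2.7.2b, HTSeq 0.9.1 and GRCm38.p6, per the submitters' processing notes, which also name DESeq2 1.28.1.

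The 22 libraries were fitted together in edgeR 4.0.16 (R 4.3.3) with TMM scaling, edgeR's filter on low counts by group and the robust quasi-likelihood test on 4 group means. Comparisons were refed against fasted in DT mice, in control mice and averaged, DT against control likewise, and the difference between responses. Adjusted p is Benjamini-Hochberg over 14064 genes, called under 0.05; SE is the log2 fold change over the root of F. Genes left untested held at most 0.176% of a library. The test was checked on simulated data. Gene positions and transcripts came from GENCODE vM21 and RefSeq, and near copies from blastn 2.17.0. Alternatives used limma 3.58.1 (voom) and DESeq2 1.42.0, RLE scaling, no filter, 2 groups only, insulin left out, an acinar covariate and leaving out libraries. The ratio tests of gene pairs were added after seeing the data.

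The genes and lists were chosen with earlier results of these data known. Named genes are the 3 with the smallest p per machine, the 4 largest rises and falls among calls, and the 3 smallest p per DT comparison and related list; other names were chosen after their values were seen. Counting error weighs most on low genes such as Sec31b, and p-values measure the spread between mice.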

Additional observations from a re-analysis of the deposited data

Results flagged for a closer look

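Single mice stood apart from the rest of their group in 22 of 168 sets of values checked (CPM of single genes and shares of counts, by group), where chance alone would give about 1 in 20. The sets are not independent, because the same libraries enter many of them and the machine shares are parts of the total share. The excess was not tested. Refed DT mouse 13 accounted for 13 of the 22. Its shares of counts were the lowest of the refed DT mice. They were 0.587% for all 70 genes, 0.141% for oligosaccharyltransferase, 0.0932% for the Sec61 channel and TRAP, 0.0921% for COPII and 0.0759% for COPI. The rest were 0.0609% for the Tmed genes, 0.0525% for the SRP and its receptor, 0.0462% for signal peptidase and 0.00832% for the Sec22 genes. These shares include insulin, which was 69.4% of its counts. With Ins1 and Ins2 left out, all 70 genes took 1.92% in mouse 13 and 2.14% to 2.62% in the other refed DT mice. Mouse 15 was then lower for oligosaccharyltransferase (0.415% against 0.461%) and for the SRP and its receptor (0.169% against 0.172%). The other listed shares of mouse 13 stayed the lowest. On the TMM scale its Copg1 (191 CPM) and Sec22a (11.1 CPM) were low, while its Dad1 (730.5 CPM) and Tmed10 (269 CPM) were high.

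Fasted control mouse 2 accounted for 7, each the highest of the fasted control mice: Spcs2 (324 CPM), Cope (259 CPM), Tmed9 (236 CPM), Sec23b (233 CPM), Ssr1 (176 CPM), the COPI share (0.174%) and the Tmed share (0.123%). Refed control mouse 12 had the lowest Sec23b of its group (326 CPM), and fasted DT mouse 6 the highest Kdelr3 of its group (10.6 CPM). No cause was tested for any of these.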

How the results depend on the processing

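The count of genes higher on refeeding in DT mice depended most on the choice of libraries and fit: against 25, it was 41 without refed DT mice 13 and 20, 16 when only the 2 groups compared entered the fit, and 18 to 43 over the fits without 1 library, with 43 without refed DT mouse 13. In control mice the fits without 1 library gave 35 to 47 higher, and averaged over treatment 43 to 54. Genes lower in DT mice fell to 0 (Copg2 lost) with no filter on low counts and without refed DT mice 13 and 20. Genes lower in control mice came to 1, Copg2, without refed DT mice 13 and 20, in the 2 groups alone and by limma-voom, and to 0 to 1 over the fits without 1 library (1 without refed control mouse 21 or refed DT mouse 13). Averaged, 2 were lower without refed DT mice 13 and 20, and 1 to 3 over the fits without 1 library, where Ssr4 or Sec31b joined Copg2. In refed mice 1 gene, Sec16b, was lower in DT than in control mice without refed DT mice 13 and 20. Mouse 20, left out there, had the highest Sec16b value of all refed mice. For the alternative fits the shares of all genes called are not given here, apart from those called higher without refed DT mouse 13. No cause of these shifts was tested. Directions turned for 2 values near 0. Sec22a ranged from −0.00142 to 0.27 in DT mice, from −0.0764 to 0.0383 in control mice and from −0.0197 to 0.13 averaged over the fits without 1 library. The Stt3a/Stt3b ratio in DT mice ranged from −0.174 to 0.0825. RLE scaling, insulin left out, DESeq2 and the acinar covariate kept the counts of genes called at an adjusted p within 1.5 times. The 12 genes under an unadjusted p of 0.05 in the difference between the responses came to 7 with RLE scaling, with insulin left out and by DESeq2, and the 7 genes above 0 to 11 with insulin left out. No paired analysis was possible because every mouse number occurs once, so the groups share none. Depth limits the low genes, such as Sec31b and Kdelr3, and 5 or 6 mice per group limit what the DT comparisons can detect.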
